A study of Homo sapiens with 6 samples.

Results

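The 38 genes described here make, burn or store fatty acids. They were chosen by function, from textbook roles, but with earlier results of these data known. Counts over them therefore describe the list and do not test it. The genes were matched by Ensembl gene identifier: 10 of fatty acid synthesis, 13 of activation and oxidation and 15 of lipid droplets, lipolysis and uptake. All 38 were found among 78648 genes, and 37 of them passed the filter on low counts that left 17624 genes to test. The libraries were poly(A) RNA of THP-1, an established human monocytic leukaemia cell line, from 3 cultures stably transduced with a PTX4 overexpression construct (PTX4-OE, replicates 1 to 3) and 3 cultures stably transduced with the empty vector (EV, replicates 1 to 3). PTX4 encodes pentraxin 4, a relative of C-reactive protein. The comparison asked which transcripts differ when PTX4 is overexpressed. All 6 libraries share the cell line, the medium and 1 labelled batch, and the labels do not say whether the transduced cells were pools or clones, or which promoter drives the construct.

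Cells build saturated fatty acids in the cytosol from citrate, by way of acetyl-CoA and malonyl-CoA, and then lengthen and desaturate them, a programme driven by the transcription factor SREBP-1. Fatty acids are broken down in mitochondria after acyl-CoA synthetases have activated them and the carnitine shuttle has carried them in, and PPAR nuclear receptors switch on many of the genes involved. Surplus is esterified to triglyceride and kept in lipid droplets, which macrophages fill when they turn into foam cells.

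The total expected count per library was 31078642 to 37718207 in PTX4-OE and 29670641 to 32691577 in EV. PTX4 had 24633, 14398 and 15782 counts in the PTX4-OE libraries, against 0, 3 and 4 counts in the EV libraries, in keeping with the labels. All 12 monocytic line markers were detected, led by SPI1 at 253 to 279 TPM in PTX4-OE and 263 to 287 TPM in EV, and their summed level was 596 to 737 TPM in PTX4-OE and 651 to 730 TPM in EV. With libraries compared as pairs of equal replicate number, 2 of these 12 passed the adjusted test, both lower in PTX4-OE: MPO, the neutrophil granule peroxidase (log2 fold change -0.54, edgeR adjusted p = 0.0080), and CSF1R, the receptor of macrophage colony-stimulating factor (-0.30, edgeR adjusted p = 0.0387). Of the 12, 4 were lower and 0 higher at an unadjusted p under 0.05, and their median was -0.11. The part of this in the results below was not tested. TPM is a level scaled for gene length and library size. Of 8 adipocyte markers LEP was at 0 in all 6 libraries and ADIPOQ reached 0.01 TPM. CFD and ADIPOR2, which myeloid cells also express, held nearly all of the summed 334 to 366 TPM in PTX4-OE and 332 to 352 TPM in EV. The hepatocyte list summed to at most 1.29 TPM in PTX4-OE and 2.07 TPM in EV. Epithelial and fibroblast markers summed to at most 0.72 TPM in PTX4-OE and 0.62 TPM in EV, with EPCAM, COL1A2 and DCN at 0, and of the lymphocyte list only NKG7 exceeded 1 TPM. Mitochondrially encoded transcripts held 2.79%, 5.39% and 4.97% of counts in the PTX4-OE libraries, against 4.75%, 5.91% and 5.51% in the EV libraries. In bulk RNA, a change in how many cells express a gene and a change in RNA per cell cannot be told apart.

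None of the 37 tested genes differed between PTX4-OE and EV at a Benjamini-Hochberg adjusted p under 0.05, whether libraries were compared as groups or as pairs of the same replicate number. The smallest edgeR quasi-likelihood adjusted p was 0.125, for PPARA with pairs, and all were at 1.00 without pairs. At an unadjusted p under 0.05 the count was 0 without pairs and 8, all higher, with pairs: 5 of 10 synthesis genes, 2 of 13 oxidation genes and 1 of 14 droplet genes. Over all genes tested, the adjusted test with pairs called 0.0284% higher and 0.233% lower, and without pairs 0.00567% higher and 0% lower. At an unadjusted p under 0.05 with pairs 4.36% of all genes were higher and 4.43% were lower, and without pairs 0.238% were higher and 0.505% were lower. DESeq2 and limma-voom also called 0 of the 37 genes, with and without pairs. Without the filter on low counts, edgeR with pairs called 4 members higher. These were FADS2 (adjusted p = 2.5e-04), SCD (adjusted p = 0.0043), FASN (adjusted p = 0.0242) and PPARA (adjusted p = 0.0248). Over all genes that setting called 106 higher and 190 lower, against 5 and 41 with the filter. The log2 fold change of SCD with pairs was 0.20 with the filter (edgeR adjusted p = 0.575) and also 0.20 without it. The fitted differences were small, with 27 of 37 log2 fold changes above 0 with pairs (51.9% of all genes were) and a median of 0.056, against 0.0053 for all genes.

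Levels ordered the genes far more than the vector did. FABP5, a carrier of fatty acids in the cytosol, was the most abundant, at 616, 415 and 287 TPM in PTX4-OE and 556, 441 and 278 TPM in EV. HADHA, the subunit of the mitochondrial trifunctional protein that hydrates and dehydrogenates long acyl chains, followed at 231, 204 and 185 TPM in PTX4-OE and 216, 204 and 195 TPM in EV. SCD, ELOVL5, ACLY and ELOVL1 averaged 196, 170, 130 and 113 TPM over the 6 libraries. At the other end LIPE, CD36, MGLL and ELOVL6 averaged 0.40, 0.41, 0.30 and 0.48 TPM. FABP4, the fatty acid carrier typical of adipocytes and mature macrophages, had 0 counts in the PTX4-OE libraries and 4, 0 and 0 counts in the EV libraries, and was the 1 gene the filter removed. No fold is given for it. The lowest library of FABP5 lay above the highest of HADHA, whereas HADHA and SCD, the next in order, overlapped across libraries.

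**Figure D1:**
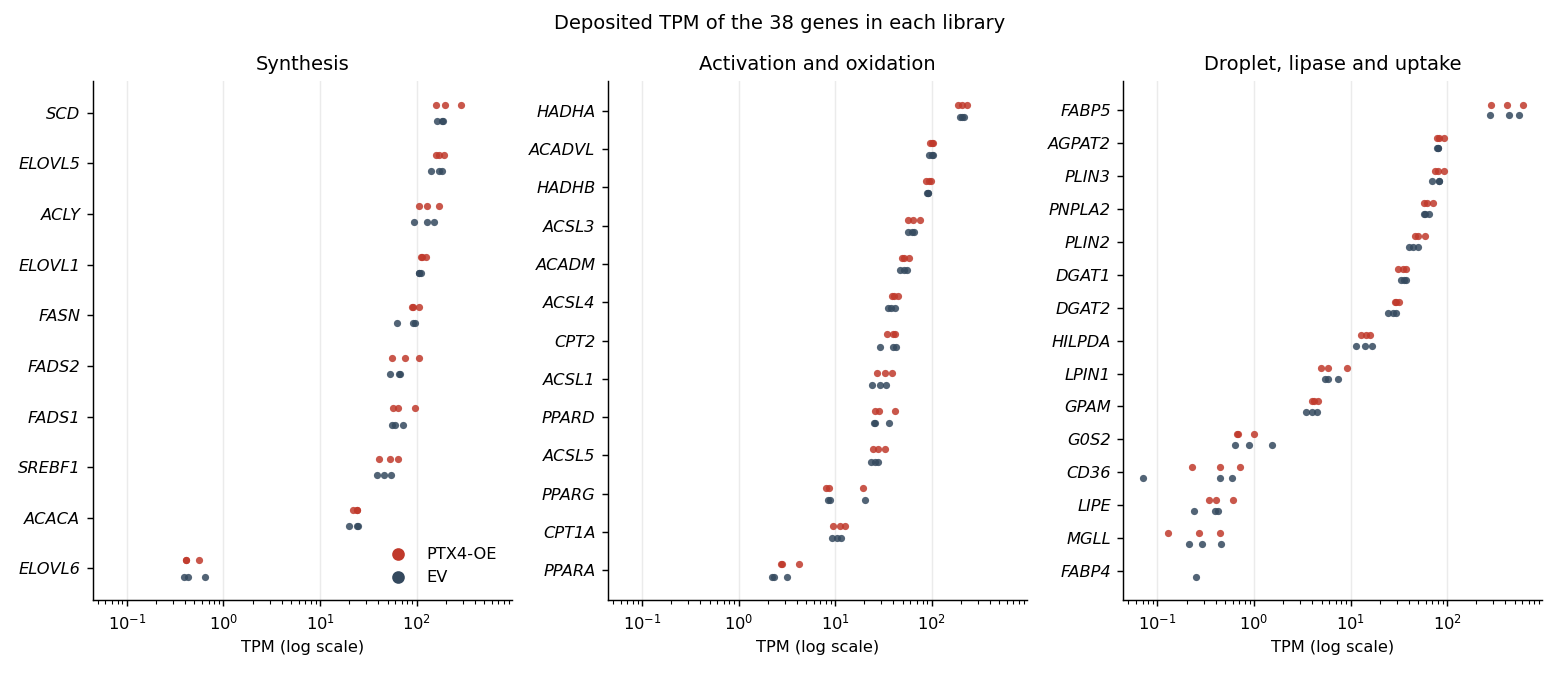
Deposited TPM (log axis) of the 38 genes in each of 3 PTX4-OE (upper, red) and 3 EV (lower, dark) libraries, by role. Levels run from FABP5 at 278 to 616 TPM to genes under 1 TPM, and the 2 groups overlap for most genes. Values of 0 cannot be drawn, so FABP4 shows its 1 EV library with counts.

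Promoters of the 2 synthesis genes with the smallest p, and of PPARA and PLIN2, are shown because these 4 lead their lists. Each is RefSeq's window of 250 bases before to 50 after a transcription start (GRCh38.p14), 5′ to 3′ on the gene's strand. Capitals mark CCAAT, the GC box GGGCGG and the E box CACGTG on either strand. The windows lie at chr17:17836937-17837236 (SREBF1, minus strand), chr11:61816154-61816453 (FADS2, plus strand), chr22:46150276-46150575 (PPARA, plus strand) and chr9:19127443-19127742 (PLIN2, minus strand).
SREBF1: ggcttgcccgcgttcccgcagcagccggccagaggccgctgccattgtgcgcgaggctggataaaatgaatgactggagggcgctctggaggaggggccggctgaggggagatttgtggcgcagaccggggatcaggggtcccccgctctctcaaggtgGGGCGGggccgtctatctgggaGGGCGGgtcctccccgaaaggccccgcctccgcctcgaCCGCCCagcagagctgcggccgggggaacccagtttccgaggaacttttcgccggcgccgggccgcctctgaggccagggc
FADS2: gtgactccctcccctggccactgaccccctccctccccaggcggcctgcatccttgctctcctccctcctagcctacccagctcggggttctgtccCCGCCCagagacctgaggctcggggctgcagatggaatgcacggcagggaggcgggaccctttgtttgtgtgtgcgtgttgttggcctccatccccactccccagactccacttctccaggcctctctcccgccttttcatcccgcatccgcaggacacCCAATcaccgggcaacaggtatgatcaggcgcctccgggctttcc
PPARA: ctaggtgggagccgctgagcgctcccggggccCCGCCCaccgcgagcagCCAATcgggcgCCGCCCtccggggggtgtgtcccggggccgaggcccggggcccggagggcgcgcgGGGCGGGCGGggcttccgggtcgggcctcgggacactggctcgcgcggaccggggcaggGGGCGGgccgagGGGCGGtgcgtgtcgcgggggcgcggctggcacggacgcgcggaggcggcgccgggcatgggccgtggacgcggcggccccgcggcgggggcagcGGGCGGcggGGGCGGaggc
PLIN2: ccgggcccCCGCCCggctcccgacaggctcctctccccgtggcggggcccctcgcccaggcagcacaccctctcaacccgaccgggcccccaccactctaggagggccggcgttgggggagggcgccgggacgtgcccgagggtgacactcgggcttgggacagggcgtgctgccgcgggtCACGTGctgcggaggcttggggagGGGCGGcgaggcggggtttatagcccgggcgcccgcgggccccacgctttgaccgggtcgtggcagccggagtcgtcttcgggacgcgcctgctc

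A window was at hand for 31 of the 38 genes, which had 55 windows among them. A gene was counted if any of its windows held the match. Its share can therefore not be compared directly with the share of single windows. CCAAT was in a window of 15 of the 31, against 34.6% of 35116 windows of the genome, where a gene may have several. GGGCGG was in 25 of the 31, against 45.0% of windows. The 4 printed windows hold 3, 1, 8 and 2 GC boxes for SREBF1, FADS2, PPARA and PLIN2. The sterol element TCACNCCAC, a form SREBP-1 is known to bind, was in windows of ACSL1 and PNPLA2, against 1.13% of windows. It was in 0 of the 9 synthesis genes with a window, and FASN had no window. PPARs are known to bind a pair of AGGTCA hexamers 1 base apart, in the same orientation. That pair was in 0 of 31 genes, against 0.0228% of windows. CACGTG was in ELOVL5 and PLIN2, against 7.26% of windows. A match in letters is a description and not a site, and a missing match does not show that a site is absent.

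Among synthesis genes, 9 of 10 had a log2 fold change above 0 and the median was 0.13 with and without pairs. SREBF1 encodes SREBP-1, the factor that switches the programme on. Its normalised CPM, which is scaled for library size and TMM factors but not for gene length, were 141, 180 and 205 in PTX4-OE and 134, 160 and 178 in EV. Each PTX4-OE library was above the EV library of its number, although the groups overlapped. The log2 fold change with pairs was 0.15 (SE 0.049, edgeR unadjusted p = 0.0081, adjusted p = 0.336).

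FADS2, the delta-6 desaturase that starts the making of long polyunsaturated fatty acids, had 117, 160 and 209 CPM in PTX4-OE and 117, 147 and 136 CPM in EV. The PTX4-OE library numbered 3 stood apart from all others, and the libraries numbered 1 were nearly equal. The log2 fold change with pairs was 0.25 (SE 0.084, edgeR unadjusted p = 0.0087, adjusted p = 0.337), and the 3 pairs differed by -0.0046, 0.13 and 0.62. FADS1, the delta-5 desaturase encoded beside it, differed by 0.026, 0.035 and 0.36 in the 3 pairs. The annotated spans of FADS1 and FADS2 overlap by 29692 bases on opposite strands, and whether counting used strand is not stated, so which gene a read of that stretch belongs to is uncertain. FADS2 also overlaps FEN1 by 4259 bases on the same strand, where strand would not tell them apart, and FEN1 had 18956 counts in all, beside 30008 for FADS2.

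SCD, the stearoyl-CoA desaturase that makes oleate, had 621, 762 and 1046 CPM in PTX4-OE and 643, 747 and 686 CPM in EV. Only the PTX4-OE library numbered 3 lay above the EV range by more than a few percent. Its pairs differed by -0.051, 0.028 and 0.61, and with the filter it passed neither threshold (log2 fold change 0.20, SE 0.092, edgeR unadjusted p = 0.0514, adjusted p = 0.575). FASN, the synthase that assembles palmitate, had 679, 587 and 535 CPM in PTX4-OE and 630, 604 and 390 CPM in EV. Here the EV library numbered 3 was the low one. Its pairs differed by 0.11, -0.043 and 0.46.

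The third pair carried much of the synthesis result. Median differences of the 10 genes were 0.068, 0.032 and 0.19 in the pairs numbered 1, 2 and 3, against 0.021, -0.0041 and -0.0010 for all genes tested. Without the pair numbered 3, the median with pairs was 0.033 and 0 of 10 genes had an unadjusted p under 0.05. The count of 5 therefore rested on that pair. SREBF1 then had a log2 fold change of 0.11 (edgeR unadjusted p = 0.0870) and FADS2 of 0.049 (edgeR unadjusted p = 0.440), while SCD stood at -0.024. Without the pair numbered 1, FADS2 alone of all members passed the adjusted test (log2 fold change 0.38, edgeR adjusted p = 0.0167). Over all genes that fit called 30 higher and 59 lower, against 5 and 41 with all pairs. Summed over the 10 genes, the level was 932, 917 and 1038 TPM in PTX4-OE and 877, 882 and 804 TPM in EV. The sums did not overlap, whereas 0 of the 10 genes had groups that did not overlap in CPM. The sums of oxidation genes overlapped (699 to 745 TPM in PTX4-OE, 680 to 713 TPM in EV), as did those of droplet genes. All genes leaned higher on the TPM scale, with a median of 0.031 on log2(TPM + 1), against 0.0077 in edgeR without pairs. SCD alone made up 287 of the 1038 TPM.

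The remaining synthesis genes had smaller differences. ACLY, which splits citrate to acetyl-CoA, had a log2 fold change of 0.078 with pairs. The elongases ELOVL1, ELOVL5 and ELOVL6 were at 0.088, 0.033 and -0.12, and ELOVL6 was the 1 member of the list below 0. ELOVL5, second in abundance on the list after SCD, had 348, 290 and 254 CPM in PTX4-OE and 333, 310 and 233 CPM in EV. The values of the groups interleaved.

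**Figure D2:**
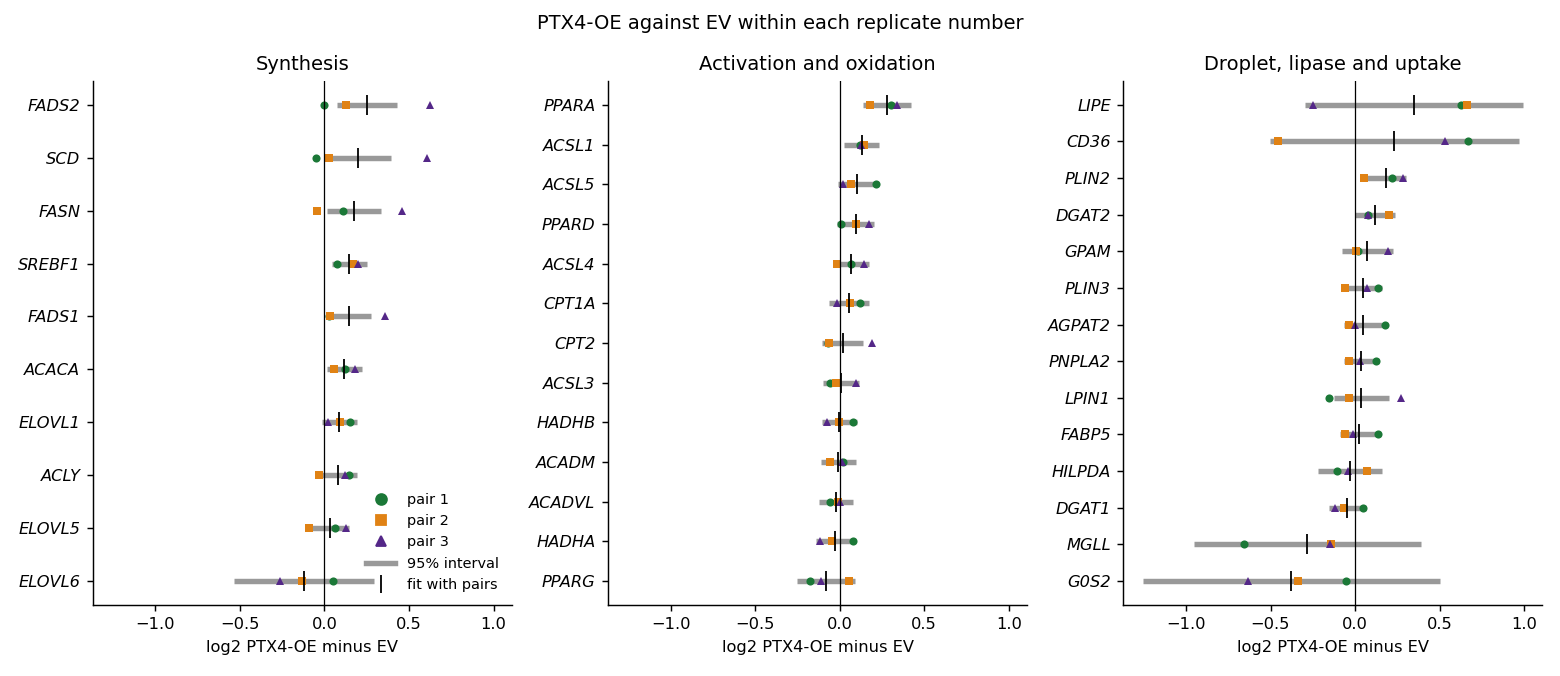
Log2 difference of PTX4-OE minus EV for the 37 tested genes, by role, within each pair of equal replicate number (coloured markers), with the fitted value with pairs (black tick) and its 95% interval (grey). Synthesis genes lie mostly right of 0 with the third pair farthest out for SCD and FADS2, and of the oxidation genes PPARA, at 0.28, and ACSL1, at 0.13, lie farthest right.

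ACACA, the acetyl-CoA carboxylase that makes malonyl-CoA, gave different answers in counts and in TPM. It had 166, 158 and 138 CPM in PTX4-OE and 153, 153 and 122 CPM in EV, a log2 fold change of 0.12 with pairs (SE 0.048, edgeR unadjusted p = 0.0271, adjusted p = 0.493). In TPM it had 24.0, 23.9 and 22.0 in PTX4-OE and 24.3, 24.6 and 20.1 in EV, a log2 difference of 0.024. The counts per TPM, which follow the transcript length the TPM step used, were 107%, 103% and 104% of the gene's mean in PTX4-OE and 95.7%, 93.6% and 97.6% in EV. These did not overlap. The groups did not overlap for ACSL3 and PPARG either, with smaller log2 shifts of -0.035, the opposite direction, and 0.022. The nearest PPARG libraries were at 100.34% in PTX4-OE and 100.31% in EV. In all, groups did not overlap for 3 of 29 members with at least 5 TPM in every library, against 5.53% of 9357 such genes. A shift as large as the 0.13 of ACACA was present in 1.03% of those genes, and ACACA was the 1 of the 29 members with a shift over 0.1, which 2.04% of those genes had. Whether different transcripts of ACACA were used in the groups was not tested.

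**Figure D3:**
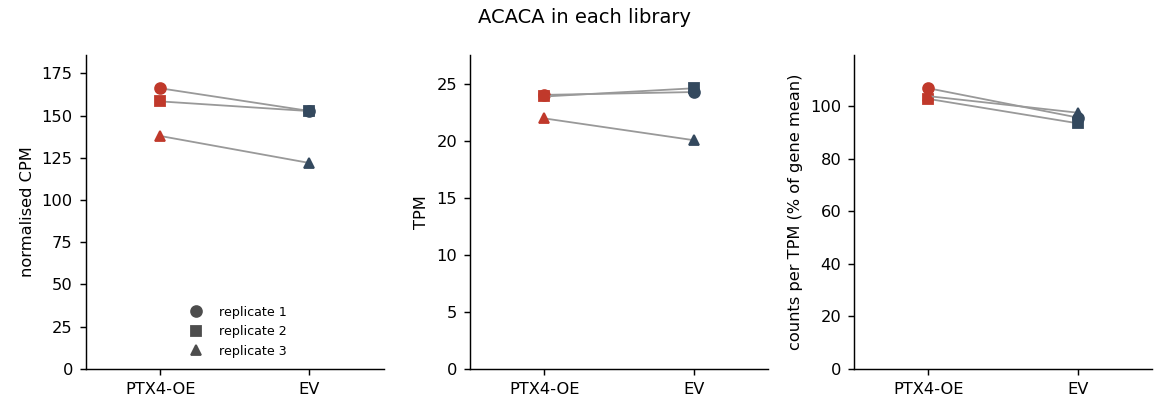
ACACA in each PTX4-OE and EV library as normalised CPM, as TPM and as counts per TPM in percent of its mean, with lines joining equal replicate numbers. Counts per TPM are 103% to 107% in PTX4-OE and 93.6% to 97.6% in EV, whereas TPM overlaps.

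Among the genes of activation and oxidation, PPARA and ACSL1 had the smallest p. PPARA encodes the nuclear receptor that switches on fatty acid oxidation in liver and muscle. It had 20.7, 19.9 and 29.6 CPM in PTX4-OE and 16.7, 17.6 and 23.4 CPM in EV. All 3 pairs were higher in PTX4-OE, by 0.31, 0.18 and 0.34, but the groups overlapped because both libraries numbered 3 were high. The log2 fold change with pairs was 0.28 (SE 0.067, 95% interval 0.14 to 0.42, edgeR unadjusted p = 0.00083, adjusted p = 0.125), and without pairs the edgeR unadjusted p was 0.206. Its level was low, at 2.73, 2.78 and 4.25 TPM in PTX4-OE and 2.19, 2.33 and 3.15 TPM in EV. The related receptors PPARD and PPARG were at 0.093 and -0.083.

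ACSL1, an acyl-CoA synthetase that activates long-chain fatty acids, had 84.8, 72.0 and 94.8 CPM in PTX4-OE and 78.1, 65.3 and 86.8 CPM in EV. Its pairs differed by 0.12, 0.14 and 0.13, nearly the same amount (edgeR unadjusted p = 0.0165, adjusted p = 0.411). The synthetases ACSL3, ACSL4 and ACSL5 were at 0.0055, 0.065 and 0.10, and ACSL5 was the third of the list by p. It had 78.7, 65.9 and 55.2 CPM in PTX4-OE and 67.7, 62.9 and 54.4 CPM in EV. The groups overlapped there too.

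The carnitine shuttle and the enzymes of the oxidation cycle lay near 0. CPT1A, the gate of mitochondrial entry, and CPT2 had log2 fold changes of 0.056 and 0.018. The acyl-CoA dehydrogenases ACADVL and ACADM stood at -0.021 and -0.0077. HADHA and HADHB, the 2 subunits of the trifunctional protein, stood at -0.028 and -0.0018 and are transcribed away from each other from starts 307 bases apart. Their annotated spans overlap by 1503 bases on opposite strands, so reads of that stretch are as uncertain as those of FADS1 and FADS2. ACADVL, second in abundance on the list after HADHA, had 151, 153 and 133 CPM in PTX4-OE and 158, 154 and 133 CPM in EV, and HADHA had 483, 424 and 360 CPM in PTX4-OE and 457, 437 and 391 CPM in EV. With pairs, the 95% interval lay within a 1.2-fold change in either direction, a limit chosen after the values were seen, for 12 of the 13 oxidation genes, PPARA being the exception. The same held for 5 of 10 synthesis genes, 9 of 14 droplet genes and 49.0% of all genes. Without pairs it held for 2 oxidation, 0 synthesis and 0 droplet genes, and for 5.94% of all genes.

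**Figure D4:**
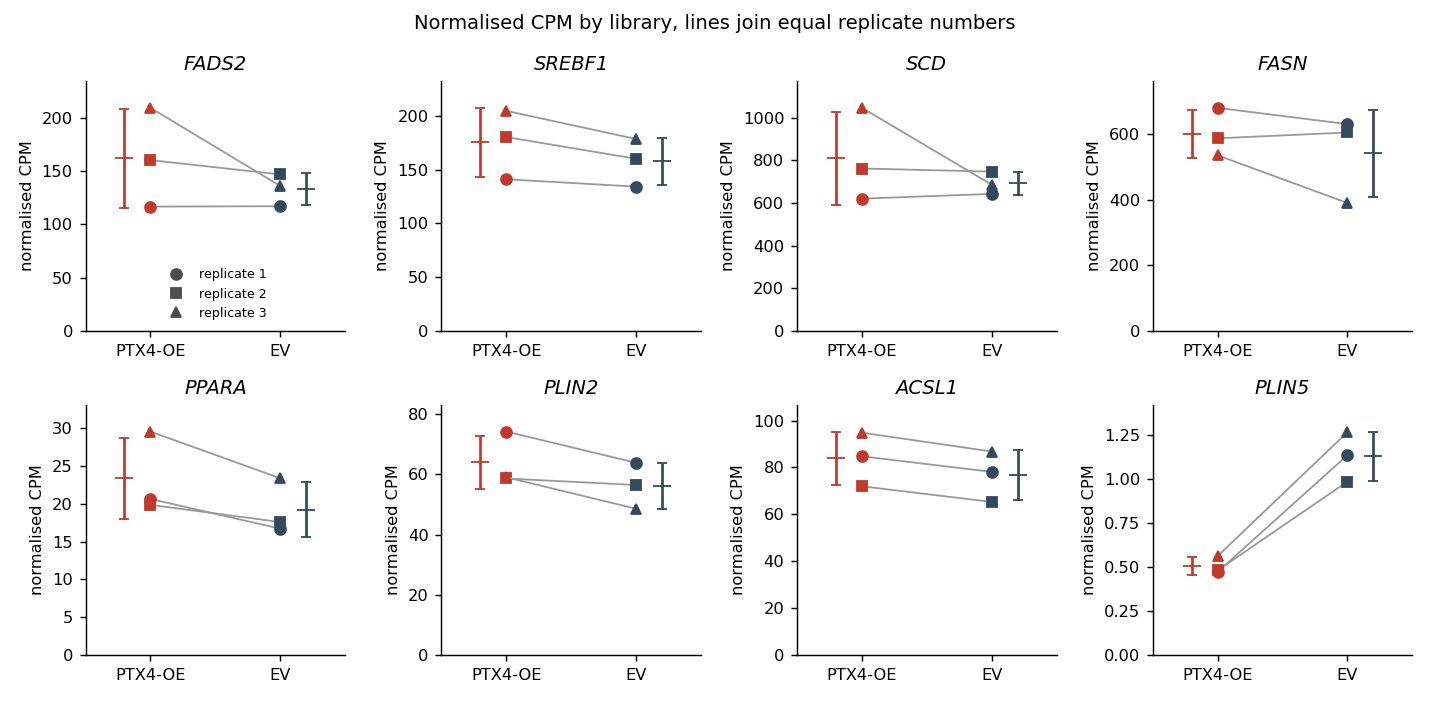
Normalised CPM in each library of 7 members and of PLIN5, with lines joining equal replicate numbers and side bars giving mean and SD (n = 3). PTX4-OE lies above EV in all 3 pairs for SREBF1, PPARA, PLIN2 and ACSL1, and below it in all 3 for PLIN5, which is the 1 gene of the 8 whose groups do not overlap.

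Of the droplet genes, PLIN2 had the smallest p. PLIN2 coats lipid droplets and is stabilised by the lipid it covers. It had 74.2, 58.6 and 59.0 CPM in PTX4-OE and 63.8, 56.5 and 48.6 CPM in EV. All 3 pairs were higher in PTX4-OE, by 0.22, 0.054 and 0.28, and the groups overlapped. The log2 fold change with pairs was 0.19 (SE 0.056, edgeR unadjusted p = 0.0044, adjusted p = 0.274). DGAT2, which joins the last acyl chain to triglyceride, had 52.2, 47.9 and 45.5 CPM in PTX4-OE and 49.5, 41.6 and 43.3 CPM in EV, with an edgeR unadjusted p of 0.0509 with pairs. DGAT1, the other enzyme of that step, was at -0.046.

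The rest of the droplet list had log2 fold changes near 0 or was too low to measure well. FABP5 was at 0.023. AGPAT2, GPAM and LPIN1, enzymes on the way from glycerol-3-phosphate to diglyceride, were at 0.048, 0.073 and 0.038. AGPAT2, second in abundance on the list, had 90.1, 76.3 and 75.5 CPM in PTX4-OE and 79.7, 78.1 and 75.5 CPM in EV. PLIN3, another coat protein, and PNPLA2, the first lipase of droplet breakdown, were at 0.050 and 0.038. HILPDA, an inhibitor of PNPLA2, was at -0.030. LIPE, hormone-sensitive lipase, had 60, 34 and 34 counts in PTX4-OE and 34, 20 and 35 counts in EV, so its log2 fold change of 0.35 carried a standard error of 0.30. CD36, MGLL and G0S2 likewise had at most 69 counts a library, and G0S2, a second PNPLA2 inhibitor, and MGLL, the monoglyceride lipase, were below 0 in all 3 pairs. Over the 37 genes, 11 were higher in all 3 pairs (16.3% of all genes) and 2 were lower (14.2% of all genes), and 0 had groups that did not overlap in CPM (2.07% of all genes higher and 2.05% lower).

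Wider lists of the same pathways gave smaller medians. For comparison, 51.9% of all genes were above 0 with pairs. At an unadjusted p under 0.05, 4.36% of all genes were higher and 4.43% lower. Of 27 tested further synthesis genes, 21 had a log2 fold change above 0 with pairs, with a median of 0.062, and 2 had an unadjusted p under 0.05, both higher. ELOVL2, an elongase of polyunsaturated chains, had 13.1, 12.2 and 9.23 CPM in PTX4-OE and 10.5, 10.6 and 7.93 CPM in EV (log2 fold change 0.25). MID1IP1, a partner of acetyl-CoA carboxylase, had 197, 205 and 237 CPM in PTX4-OE and 177, 189 and 224 CPM in EV (0.12). Both were higher in every pair, and their groups overlapped. Of 28 tested further oxidation genes 10 were above 0, with a median of -0.029. At an unadjusted p under 0.05 ACADSB, a dehydrogenase of short branched chains, was at 0.14 and 2 genes were below 0. CPT1B, the muscle form of the shuttle's gate, had 30.9, 35.7 and 37.6 CPM in PTX4-OE and 36.0, 39.1 and 40.4 CPM in EV (-0.15). The deposited counts of CPT1B, and those of VLDLR below, were not whole in any library. ACOX3, a peroxisomal oxidase, had 29.2, 27.9 and 20.7 CPM in PTX4-OE and 34.6, 30.6 and 21.4 CPM in EV (-0.15). Both were lower in every pair, with overlapping groups. Of 25 further droplet genes 12 were above 0, with a median of -0.011. At an unadjusted p under 0.05 VLDLR, the receptor for very low density lipoprotein, was at 0.14, with 314, 268 and 249 CPM in PTX4-OE and 276, 265 and 215 CPM in EV, and PLIN5 was at -1.16. Among 10 tested targets of PPARs, a list that includes members of the 38, 4 were above 0, PLIN2 was the 1 at an unadjusted p under 0.05, and TXNIP, an inhibitor of thioredoxin and next by p, was at -0.11, with 694, 733 and 822 CPM in PTX4-OE and 733, 751 and 946 CPM in EV. None passed the adjusted test.

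PLIN5, a droplet coat protein of oxidative tissue and not a member of the list of 38, had the log2 fold change farthest from 0 in the wider droplet list. It had 17, 15 and 22 counts in PTX4-OE and 36, 29 and 43 counts in EV, or 0.473, 0.481 and 0.563 CPM in PTX4-OE and 1.14, 0.987 and 1.27 CPM in EV. Its groups did not overlap, and the pairs differed by -1.24, -1.01 and -1.16. The log2 fold change with pairs was -1.16 (SE 0.33, edgeR unadjusted p = 0.0028, adjusted p = 0.223), so it did not pass. The counts are few, and PLIN5 overlaps by 6798 bases an unnamed protein-coding gene on its own strand, which had 22 counts in all.

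The replicate number, not the vector, separated most libraries. When the sum of squares of log2 CPM was split, replicate number held a larger share than PTX4-OE against EV in 37 of 37 genes, with medians of 87.8% and 4.83%, against 79.7% and 4.41% for all genes. Replicate number has more degrees of freedom than group. In the wider lists it held the larger share in 26 of 27 synthesis, 25 of 28 oxidation and 22 of 25 droplet genes. The matching count over all genes was not made, so these counts do not set the lists apart from other genes. By list, the group held a median of 11.8% for synthesis, 1.09% for oxidation and 3.96% for droplet genes. PPARG was at 21.6 CPM in the PTX4-OE library numbered 3 and 23.3 CPM in its EV partner, against 9.51 to 10.4 CPM in the other PTX4-OE libraries and 9.97 to 10.7 CPM in the other EV libraries. FABP5 and ACLY were low in the libraries numbered 3, at 82.8 and 312 CPM in PTX4-OE and 83.6 and 287 CPM in EV. SCD had 35.2% of its variation in neither term, although replicate number held a larger share of it than the group. What the numbers share is not given in the labels, and its part in these values was not tested.

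**Figure D5:**
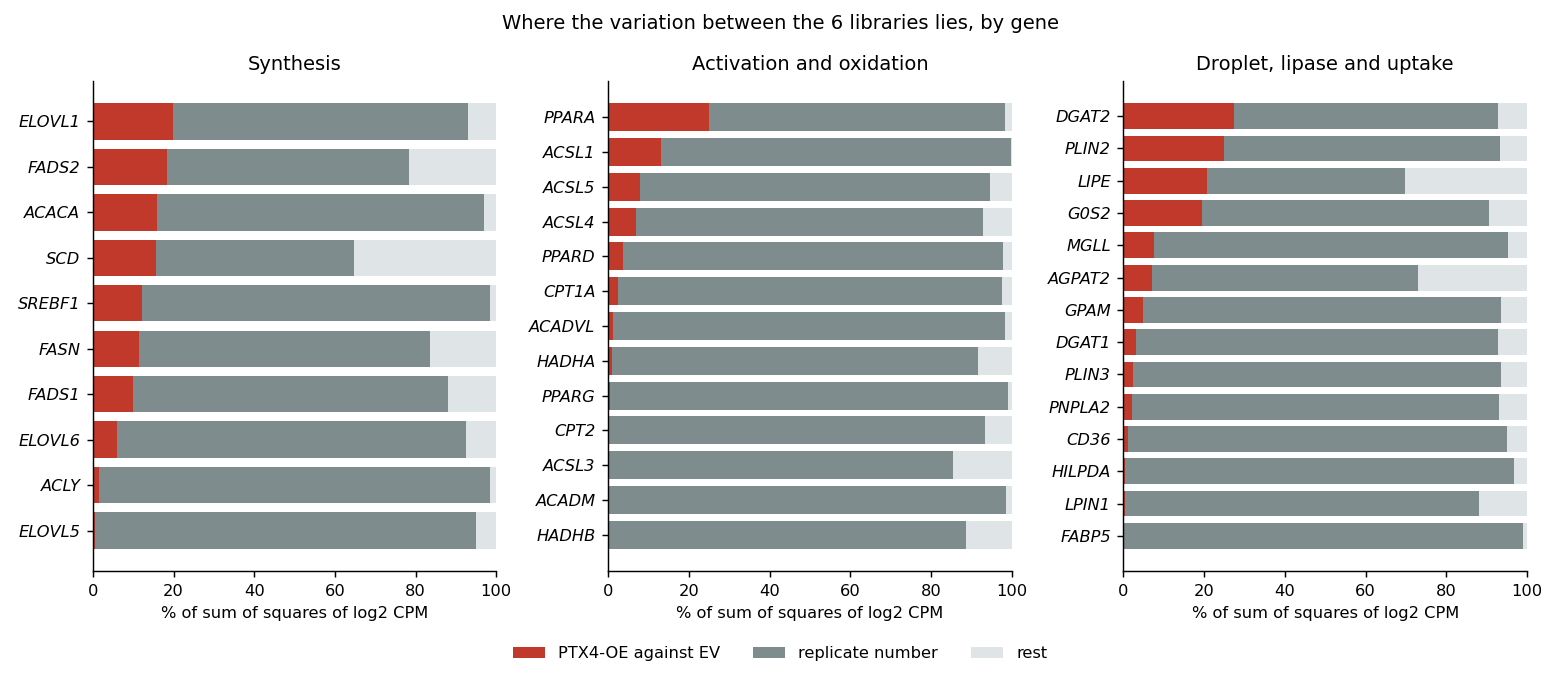
Share of the sum of squares of log2 CPM (percent) that lies between PTX4-OE and EV (red), between replicate numbers (grey) and in the rest (pale) for each of the 37 tested genes. The replicate number holds the larger share in all 37, and the group's share is highest for DGAT2, PPARA and PLIN2.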

How the data were processed

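The authors deposited expected counts and TPM for 78686 Ensembl genes in 6 libraries, made with STAR and featureCounts on GRCh38 after FastQC 0.11.5, per the submitters' processing notes, with no settings. The deposited expected counts are not normalised, 7.94% of them are not whole, and the step behind that, like strand use, is not stated in the sources used here. The deposited TPM were scaled by the authors to a sum of 1000000 per library. A deposited FPKM table was not used. Genes listed on both X and Y (38 pairs) were summed, and coordinates came from GENCODE release 44.

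Rounded counts went into edgeR 4.0.16, run in R 4.3.3 (filterByExpr, TMM, quasi-likelihood F test, Benjamini-Hochberg over 17624 genes, threshold 0.05). The 6 libraries entered without a block. Replicate numbers come from the labels. Deviations from group means of same-numbered libraries correlated at 0.632, 0.130 and 0.699, all over 0.1, so a fit blocked on replicate number is given beside it. For unlike numbers the range was -0.643 to 0.117, so number 2 is close to the limit. The biological coefficient of variation was 0.217 without and 0.0551 with the block. The SE of a fold change follows from its F statistic and uses variances moderated across genes. P-values without the block measure the spread between these cultures. Those with the block leave out the spread between replicate numbers and measure what remains within the pairs. Counting error limits what low genes can show. The members and lists were chosen with earlier results of these data known. Named with every library's value were, in each list, the 2 most abundant members and the 3 with the smallest p with the block, and in each wider list the 2 with the smallest p. Others, such as FASN, FADS1, ACADSB and PPARG, were named after their values were seen. Promoter windows came from RefSeq. Alternatives were DESeq2 1.42.0, limma 3.58.1 on voom weights and on log2(TPM + 1) or log2(TPM + 0.1), DESeq2 size factors in edgeR, no filter, mitochondrially encoded genes left out and each replicate left out. The procedure was run on data simulated from the fit with the block, with changes larger than those fitted for the members. That run cannot show whether the pairing holds or how well differences as small as theirs are found. Python 3.11.15, pandas 2.3.3 and matplotlib 3.10.9 handled tables and plots.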

Additional observations from a re-analysis of the deposited data

How the results depend on the processing

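Under the alternatives 141 values of counts and medians stayed within their replicate spread or 1.5 times the count, and 43 moved beyond it. The oxidation and droplet medians turned negative without PTX4-OE replicate 1 (-0.016 and -0.037) and without EV replicate 3 (-0.017 and -0.016), and 24 values of single genes changed sign. Over all genes, the count called higher was 1 without the replicate block and 5 with it, also with DESeq2 size factors or without mitochondrially encoded genes. It was 106 without a filter with the block, 6 with DESeq2 and the block, 0 with limma-voom and 14 with limma-voom and the block. The count called lower was 0 without the block and 41 with it, 42 with DESeq2 size factors, 190 without a filter, 32 with DESeq2, 53 with limma-voom, 3 on log2(TPM + 0.1) and 41 without mitochondrially encoded genes, all with the block, and 1 without a filter and 2 with DESeq2 without it. Leaving out 1 library without the block gave 1 higher and 0 lower each time, and leaving out the pairs numbered 1, 2 and 3 with the block gave 30, 8 and 41 higher and 59, 15 and 167 lower. Members called higher were 0, but 4 without a filter with the block: SCD (0.20, adjusted p = 0.0043), FADS2 (0.26, adjusted p = 2.5e-04), PPARA (0.28, adjusted p = 0.0248) and FASN (0.18, adjusted p = 0.0242), and 0 to 1 with a replicate left out. Members called lower were 0 throughout. Synthesis genes at an unadjusted p under 0.05, a count added after seeing the data, were 0 without the block in every setting with all libraries. With the block they were 5, 5 with DESeq2 size factors, 6 without a filter, 2 with DESeq2, 6 with limma-voom, 4 on either TPM scale and 5 without mitochondrially encoded genes, and 0 to 6 with a replicate left out. With a replicate left out the medians ran from 0.033 to 0.16 for synthesis, -0.017 to 0.067 for oxidation (0.055 without the pair numbered 2) and -0.037 to 0.11 for droplet genes. The oxidation median was 0.074 on log2(TPM + 1) with and without the block and 0.075 on log2(TPM + 0.1), where the median of all genes was 0.031 on the first scale. HADHA (0.0076) and ACADVL (0.013, and 0.014 on the second) were above 0 on these scales. The cause was not tested. With a replicate left out the sign turned in part for SCD (-0.024 to 0.39; -0.0069 without PTX4-OE replicate 3), ELOVL5 (-0.11 to 0.12), HADHA (-0.12 to 0.074), ACADVL (-0.094 to 0.033), ACSL5 (-0.016 to 0.22), FABP5 (-0.29 to 0.28), AGPAT2 (-0.026 to 0.089) and TXNIP (-0.19 to 0.015). With the block, ELOVL5 was -0.027 and HADHA 0.0046 without the pair numbered 3, and FABP5 was -0.036 and AGPAT2 -0.015 without the pair numbered 1. FABP5 has 16 named pseudogenes, which hold 0.308% of its summed count, and its counts were not whole in any library.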

Other observations

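In the wider oxidation list 2 of 28 tested genes had groups that did not overlap in CPM, 1 higher and 1 lower, against 2.07% higher and 2.05% lower among all genes. ACADSB had 28.1, 26.6 and 26.3 CPM in PTX4-OE and 24.2, 26.0 and 23.2 CPM in EV. DECR1, which reduces the double bonds of polyunsaturated chains during oxidation, had 107, 108 and 100 CPM in PTX4-OE and 110, 112 and 116 CPM in EV. Neither passed the adjusted test with the replicate block (edgeR adjusted p = 0.536 and 0.610).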
